A study of Mus musculus with 16 samples.

Results

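Rps7 encodes a protein of the small ribosomal subunit, and Gm6472 is a processed pseudogene whose transcript is almost the same sequence. Counts of RNA sequencing reads were examined for these 2 genes, and for their sum, among the 49585 genes of the deposited tables. Gm6472 was chosen because it had the smallest p of all genes in both comparisons of deficient with wild-type libraries. Its difference in those comparisons is therefore described without a test. Rps7 was chosen as its parent gene, through its sequence. Gm6472 made up about 5% of the counts of the pair in every deficient library and under 1% in every wild-type library, while Rps7 itself passed the test in neither line.

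Neutrophils, short-lived white blood cells, were obtained by flow cytometric sorting from bones of C57BL/6 mice aged 8 to 12 weeks, per the labels, and total RNA was sequenced. In the P2 line, floxed alleles of the oxygen sensor PHD2 were deleted with Vav:cre, a recombinase active in blood-forming cells and their descendants (P2KO), and wild-type mice of that line were the controls (P2WT). In the P2H2 line, PHD2 and HIF2 were both floxed and deleted with Vav:cre (P2H2KO), with wild-type controls of its own (P2H2WT). Each of the 4 groups held 4 libraries, whose numbers and suffixes (m or f) come from their titles. The labels do not say whether the controls carry floxed alleles or the recombinase. PHD2 marks the hypoxia-inducible factors HIF1 and HIF2 for degradation when oxygen is present, and the series asked how HIF2 bears on neutrophil motility.

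The ribosome is built from RNA and about equal numbers of each of its proteins, so genes for ribosomal proteins are usually expressed together. Rps7 takes part in maturation of the RNA of the small subunit, and it also binds Mdm2, the ligase that degrades p53. A processed pseudogene is a copy of a spliced messenger RNA that was written back into the genome, without introns and without the promoter of its parent. Mammalian genomes hold many such copies of ribosomal protein genes.

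The 16 libraries held between 23450746 and 28601284 counts. Within groups, none of the 24 pairs of libraries agreed within sampling noise (the lowest chi-square per degree of freedom was 10.6). Nothing in the labels says that the libraries of a group came from separate mice, so p values measure the spread between these libraries, which may be partly technical. All 10 libraries with the suffix m had 0 to 3 counts of Xist and 1307 to 1840 of Ddx3y, and all 6 with the suffix f had 2598 to 6200 and 0 to 1. Counts over whole genes did not show the labelled deletions. Egln1, which encodes PHD2, was at 49.5 ± 6.40 CPM (the count scaled to the library total, in its usual unit; SD, n = 4) in P2KO against 48.7 ± 2.21 in P2WT, and at 53.2 ± 4.39 CPM in P2H2KO against 52.2 ± 2.97 in P2H2WT. Epas1, which encodes HIF2, was at 5.65 ± 2.17 CPM in P2H2KO against 3.56 ± 1.02 in P2H2WT. Which exons were floxed is not given in the sources used here, and a count over a whole gene need not show the loss of single exons. All 15 neutrophil markers were present, and so were the markers of other cells. The 15 neutrophil markers summed to between 33200 and 84480 CPM, and 9 erythroid markers, haemoglobin genes included, to between 24126 and 49576 CPM. P2KO replicate 6 had the highest neutrophil sum of its group (74362 CPM) and the lowest erythroid sum of all libraries (24126 CPM). The part of this cell content in the values of Rps7 and Gm6472 was not tested.

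Rps7 (ENSMUSG00000061477) lies on the minus strand of chromosome 12, at chr12:28630854-28635953 (GRCm38, GENCODE M21). The transcript of it used here has 7 exons and 954 bases and encodes 194 residues. Gm6472 (ENSMUSG00000095597) lies on the minus strand of chromosome X, at chrX:152909505-152910155, and is annotated as a transcribed processed pseudogene of 1 exon and 651 bases. Over those 651 bases the transcripts differed at 4 positions and had no gap, which is an identity of 99.39%. Counted from the first base of Gm6472, with the base of Rps7 first, the differences were G14A, T61G, G83A and G158T. G14A falls in the 5′ UTR (exon 1 of Rps7), T61G and G83A in codons 9 and 16 of exon 2, and G158T in codon 41 of exon 3. T61G changes the encoded residue, and the other 2 in the coding sequence do not. The reading frame of 194 residues, its start codon at position 36 and its stop codon TAA are kept in Gm6472. The sequences are shown because these 4 bases are all that can tell a read of one gene from a read of the other within the 651 bases. Capitals mark the differing bases. The first stretch spans positions 3 to 25 in the 5′ UTR, at chr12:28635857-28635879 and chrX:152910131-152910153.
Rps7: ctttctaagccGgcgatccgtca
Gm6472: ctttctaagccAgcgatccgtca
The second stretch spans positions 36 to 170, from the start codon across the 3 coding differences. In Rps7 it is spliced from exons 2 and 3 within chr12:28635428-28635654, and in Gm6472 it is the unbroken stretch chrX:152909986-152910120.
Rps7: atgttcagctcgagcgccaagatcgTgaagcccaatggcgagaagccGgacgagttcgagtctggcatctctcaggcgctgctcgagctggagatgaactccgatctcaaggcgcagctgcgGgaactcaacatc
Gm6472: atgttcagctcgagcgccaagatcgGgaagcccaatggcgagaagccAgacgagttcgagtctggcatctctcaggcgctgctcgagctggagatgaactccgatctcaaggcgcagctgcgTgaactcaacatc

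**Figure D1:**
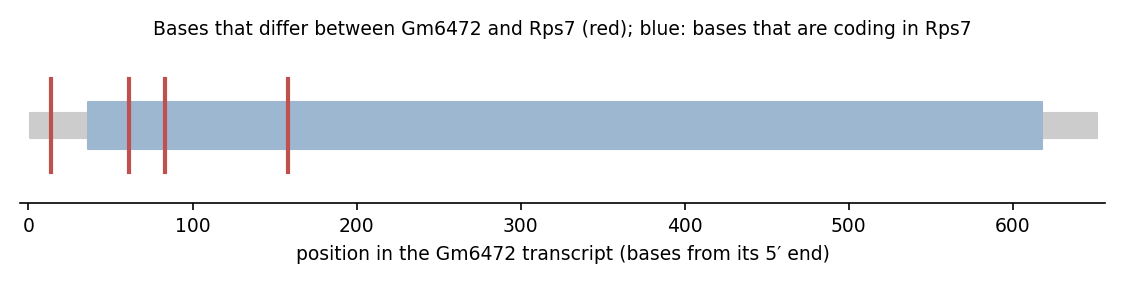
Map of the Gm6472 transcript along its 651 bases (x axis, bases from the 5′ end), with red lines at the 4 positions that differ from Rps7 and in blue the bases that are coding in Rps7. All 4 lie between positions 14 and 158, and the last 493 bases are identical.

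How many reads can separate the genes depends on their length, which is not given in the sources used here. Of all windows of 50 bases in Gm6472, 22.09% occur nowhere in Rps7, and of windows of 100 bases 28.62% do not. The remaining windows match both genes exactly. A count of Gm6472 can therefore rest on reads over the first part of its transcript. It can also rest on reads that reach past its annotated ends, which these windows do not cover. Otherwise the authors' processing placed reads on one of the genes without a base to decide between them. Which of these holds cannot be told apart in the deposited counts.

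Gm6472 had 31, 29, 25 and 27 counts in P2WT (replicates 10, 3, 4 and 7). In P2KO (replicates 1, 5, 6 and 9) it had 371, 387, 265 and 315. The lowest P2KO library was thus far above the highest P2WT library. Gm6472 was chosen on this comparison, so the separation of the groups is a description. Scaled to library size, Gm6472 stood at 1.07 ± 0.0451 CPM in P2WT and 12.4 ± 1.45 CPM in P2KO (SD, n = 4 each), a difference of 11.3 CPM. The fitted log2 fold change was 3.54 (SE 0.12), an 11.6-fold higher level. In that comparison edgeR called 6 of 13734 genes at an adjusted p of 0.05 (0.0437%), all higher in P2KO, and Gm6472 had the third largest log2 fold change of all genes tested.

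Gm6472 in the P2H2 line had 39, 35, 34 and 24 counts in P2H2WT (replicates 13, 14, 16 and 18). In P2H2KO (replicates 11, 12, 15 and 17) it had 337, 326, 388 and 326. All 4 deficient libraries lay in a narrow range, far above the wild-type libraries, and Gm6472 was chosen on this comparison too. The means were 1.27 ± 0.203 CPM in P2H2WT and 14.1 ± 0.719 CPM in P2H2KO, a difference of 12.8 CPM. The fitted log2 fold change was 3.46 (SE 0.13), the largest of all 13435 genes tested. Here edgeR called 10 genes (0.0744%), all higher in P2H2KO.

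**Figure D2:**
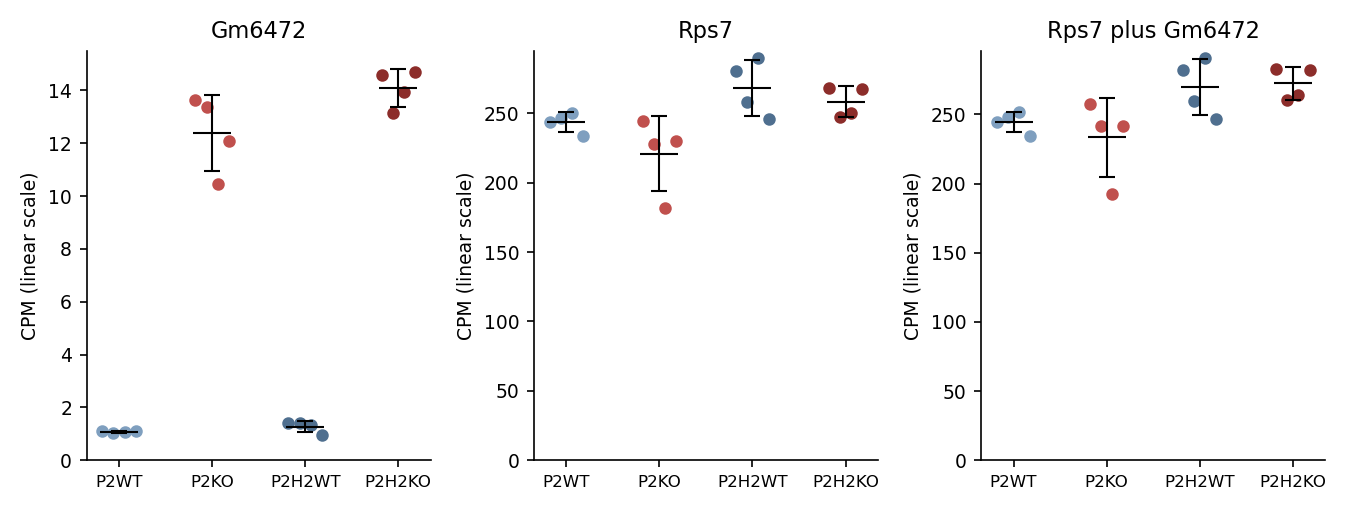
Levels of Gm6472, of Rps7 and of their sum in CPM on linear axes, for the 4 groups (x axis); each point is a library, and bars give the mean and SD of 4 libraries. Gm6472 stands near 1 CPM in the wild-type groups and between 10.5 and 14.7 CPM in the deficient groups, while the points of Rps7 and of the sum overlap within each line.

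The effect on Gm6472 was compared between the lines directly. The log2 fold change in the P2 line minus that in the P2H2 line was 0.060 (SE 0.17, edgeR adjusted p 0.999), with a 95% interval from -0.30 to 0.42. The interval thus spans 0 and holds differences in either direction. Gm6472 was chosen by its p in both of the comparisons that this difference is made from, so its values here are a description. No gene of 14080 passed the test of this difference (0%), and 212 (1.51%) had an unadjusted p under 0.05. The levels of Gm6472 were also compared between the lines. P2WT against P2H2WT gave -0.25 on the log2 scale (SE 0.18, 95% interval from -0.65 to 0.15, edgeR adjusted p 0.653), where 1.22% of genes were called. P2KO against P2H2KO gave -0.21 (SE 0.10, 95% interval from -0.44 to 0.022, edgeR adjusted p 0.485), where 0.279% were called. Line and deposited table coincide in these last comparisons and cannot be told apart. Ordered by mean CPM, Gm6472 was lowest in P2WT, then P2H2WT, P2KO and P2H2KO, and neither the 2 wild-type groups nor the 2 deficient groups passed the test against each other.

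Gm6472 is on chromosome X, and the suffixes m and f were compared with the group as a covariate. The log2 difference of m minus f was -0.025 (SE 0.17, edgeR adjusted p 0.951, 95% interval from -0.36 to 0.31), in a comparison in which 23 of 14080 genes (0.163%) were called. The deficient libraries with the suffix m spanned 10.5 to 14.6 CPM, and those with the suffix f 12.1 to 14.7 CPM.

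Rps7 was counted many times more often than its copy. It had 6481, 6485, 6105 and 6343 counts in P2WT (replicates 10, 3, 4 and 7). In P2KO (replicates 1, 5, 6 and 9) it had 6639, 6606, 4603 and 5988. Replicate 6 of P2KO was low and the other 3 were close to the controls. In CPM, 3 of the 4 P2KO libraries were below all P2WT libraries, and the groups overlapped through replicate 1 (244 CPM). The means were 221 ± 27.1 CPM in P2KO and 244 ± 7.31 CPM in P2WT. The log2 fold change was -0.13 (SE 0.090, 95% interval from -0.33 to 0.074, unadjusted p 0.182 and adjusted p 0.99999 by edgeR). Without P2KO replicate 6 it was -0.046.

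In the P2H2 line Rps7 had 7836, 6480, 7489 and 6081 counts in P2H2WT (replicates 13, 14, 16 and 18). In P2H2KO (replicates 11, 12, 15 and 17) it had 6205, 6139, 6967 and 5932. The ranges in CPM lay within each other, 247 to 269 in P2H2KO and 246 to 290 in P2H2WT. The means were 258 ± 11.2 and 269 ± 20.2 CPM, and the log2 fold change was -0.055 (SE 0.080, 95% interval from -0.24 to 0.13, edgeR adjusted p 0.99991). Leaving out single libraries moved it between -0.015 (without P2H2WT replicate 16) and -0.10 (without P2H2WT replicate 18). The difference between the lines for Rps7 was -0.085 (SE 0.12, edgeR adjusted p 0.999).

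Genes of unlike length are compared per kilobase of annotated exon, here 2015 bases over all transcripts of Rps7 and 651 of Gm6472. On this scale Rps7 was at 121 ± 3.63 CPM per kb in P2WT and 110 ± 13.4 in P2KO. With the 954 bases of the transcript described above, Rps7 would stand higher. Gm6472 was at 1.65 ± 0.0693 in P2WT and 19.0 ± 2.22 in P2KO. The level of the copy thus stayed below that of its parent in all 16 libraries on this scale too.

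The sum of both genes stands for reads that could come from either. It averaged 245 ± 7.28 CPM in P2WT and 233 ± 28.4 CPM in P2KO, and the fitted log2 change was -0.058 (SE 0.090; adjusted p 0.99992 by edgeR). Without P2KO replicate 6 the sum was higher in P2KO, by 0.025. In the P2H2 line it averaged 270 ± 20.3 CPM in P2H2WT and 273 ± 11.8 CPM in P2H2KO, and the fitted log2 change was 0.014 (SE 0.080; adjusted p 0.99981 by edgeR). Leaving out single libraries of that line moved the sum between -0.030 and 0.054. Adding Gm6472 to Rps7 shifted the log2 fold change by 0.072 in the P2 line and by 0.070 in the P2H2 line. This upward shift follows from the choice of Gm6472 on these comparisons, so the p values of the sum are a description.

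The share of Gm6472 in the counts of the pair needs no scaling to library size. In P2WT it was 112 of 25526 counts, 0.439% (95% Wilson interval 0.365% to 0.528%), and in P2H2WT 132 of 28018, 0.471% (0.397% to 0.558%). In P2KO it was 1338 of 25174 counts, 5.32% (5.04% to 5.60%), and in P2H2KO 1377 of 26620, 5.17% (4.91% to 5.45%). Single libraries spanned 0.393% to 0.537% among the 8 wild-type and 4.998% to 5.53% among the 8 deficient. These intervals cover counting error only, since reads without molecular identifiers are not independent molecules. Between the deficient groups the mean shares differed by 0.147 percentage points (exact two-sided permutation p 0.286). Between the wild-type groups they differed by -0.0311 percentage points, P2WT minus P2H2WT (exact two-sided permutation p 0.4). P2KO replicate 6, which was low in both genes, had a share of 5.44%, inside the range of the other deficient libraries.

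**Figure D3:**
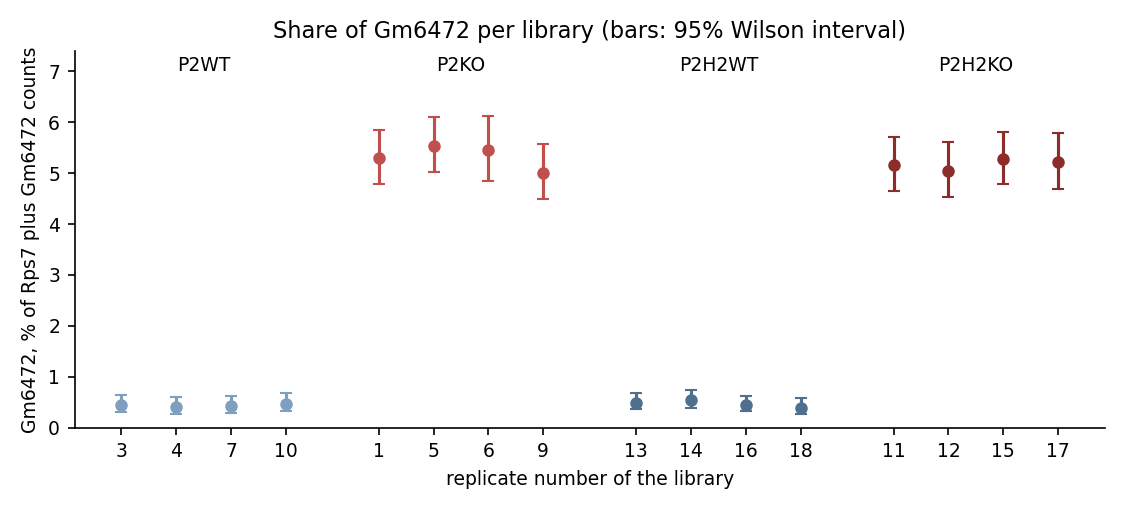
Share of Gm6472 in the counts of Rps7 plus Gm6472 (y axis, %) for each library (x axis, by group and replicate number), with 95% Wilson intervals for counting error. The 8 deficient libraries sit between 4.998% and 5.53% and the 8 wild-type libraries between 0.393% and 0.537%, with overlapping intervals inside each set.

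The spread of that share within a genotype was no larger than counting error. Across the 8 deficient libraries the chi-square per degree of freedom of Gm6472 against Rps7 was 0.436, where 1 is the value that counting error alone gives. Across the 8 wild-type libraries it was 0.326. The same measure for each of 32 other small subunit genes against Rps7 ran from 2.04 to 33.5 (median 6.70) in the deficient libraries and from 0.711 to 9.54 (median 2.64) in the wild-type libraries. It grows with the counts of a gene, and most ribosomal protein genes have far more counts than Gm6472. Gm6472 was also chosen by its small p in these libraries, a rule that favours genes with little spread within groups. The spread of its share and the comparison with other genes are therefore a description. Rpl36al, a large subunit gene with fewer counts than most (mean 982 in the deficient libraries), was at 5.04 per degree of freedom, above Gm6472; it was named after its values were seen.

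Within the deficient libraries the log2 levels of the pair went up and down together. Pearson's r was 0.956 over the 8 libraries (exact permutation p 0.000992, adjusted 0.0119 over 12 relations), and Spearman's rho was 0.857 (exact permutation p 0.0107, adjusted 0.129). Without the 2 libraries farthest from the median of Rps7, r was 0.808, and leaving out single libraries kept r between 0.851 and 0.9748. In the 8 wild-type libraries r was 0.732 (exact permutation p 0.0412, adjusted 0.165), rho was 0.548 and r without 2 libraries was 0.482. Both genes take reads from the same library and can share reads, and the lines differ in mean level. Within the single groups of 4 libraries no correlation was computed.

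**Figure D4:**
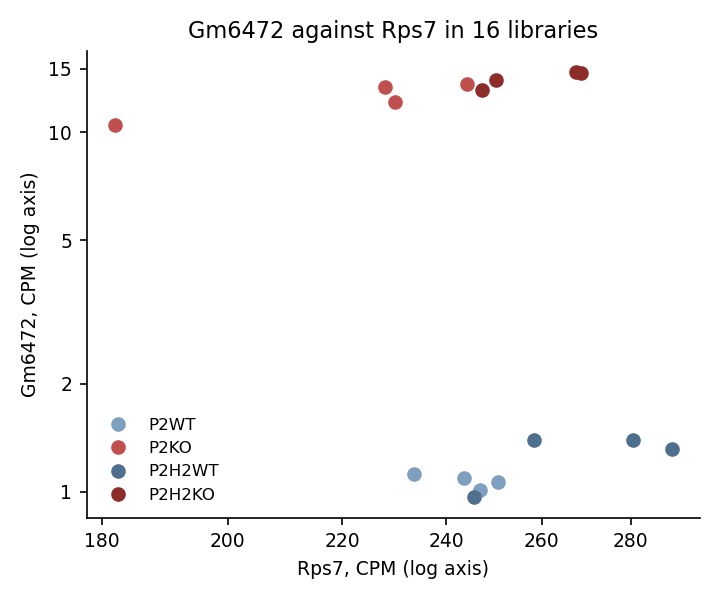
Gm6472 (y axis, CPM, log axis) against Rps7 (x axis, CPM, log axis) in 16 libraries coloured by group. The deficient and wild-type libraries form separate clouds at a similar range of Rps7, and the deficient cloud slopes upward (r = 0.956 over 8 libraries).

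Across all 16 libraries the genes most like Gm6472 in log2 CPM were Ankrd37 (r = 0.989), Pfkl (0.973), Tpi1 (0.964), Aldoc (0.958) and Grhpr (0.947). Ankrd37 encodes an ankyrin repeat protein and is a known target of hypoxia-inducible factors. Pfkl, Tpi1 and Aldoc encode enzymes of glycolysis, and Grhpr encodes a glyoxylate and hydroxypyruvate reductase. Ankrd37 stood at 0.657 ± 0.120 CPM in P2WT and 4.37 ± 0.583 CPM in P2KO, and at 0.790 ± 0.0734 CPM in P2H2WT and 5.16 ± 0.837 CPM in P2H2KO. These genes were chosen by likeness over the same libraries, so the coefficients are a description, and they span the gap between genotypes. Within the deficient libraries their r with Gm6472 lay between 0.197 (Aldoc) and 0.630 (Grhpr). Within the wild-type libraries it lay between -0.73 (Aldoc, exact permutation p 0.0389, adjusted 0.165) and 0.570 (Ankrd37), and was negative for Pfkl as well (-0.33). None of the 5 had an adjusted exact permutation p under 0.05 in either genotype. Rps7 ranked 12687th by likeness to Gm6472 over all 16 libraries, with r = -0.27. The genes most like Rps7 were other ribosomal protein genes: Rps15a (0.975), Rpl34 (0.968), Rps24 (0.966), Rps3 (0.964) and Rpl7 (0.964).

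Rps7 was then set against the other 32 small subunit genes of the same library, as its log2 CPM minus the mean of theirs. This measure was -0.47 ± 0.028 in P2WT and -0.56 ± 0.060 in P2KO (SD, n = 4), a difference of -0.090. For the P2H2 line it was -0.46 ± 0.012 in P2H2WT and -0.50 ± 0.029 in P2H2KO, a difference of -0.045. In both lines all 4 deficient libraries were below all 4 controls, though in the P2H2 line the highest deficient library (-0.4731) and the lowest control (-0.4727) were almost equal. Each exact two-sided permutation p was 0.0286, the smallest that 4 against 4 libraries allow, and 0.143 after adjustment over 10 tests, so neither passed the adjusted threshold. With the median of the other genes in place of the mean, the exact permutation p was 0.143 in the P2 line and 0.0571 in the P2H2 line. Without P2KO replicate 6 the difference in the P2 line was -0.060.

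Gm6472 was chosen on these same comparisons, in which it was higher in the deficient libraries. Adding it to Rps7 therefore had to raise the deficient groups, so the values and p of the sum are a description only. The sum relative to the other small subunit genes differed by -0.017 in the P2 line (exact permutation p 0.771) and by 0.025 in the P2H2 line (exact permutation p 0.2), and the groups overlapped in both. Between the wild-type groups, Rps7 alone differed by -0.011 (exact permutation p 0.514), and between the deficient groups, P2KO minus P2H2KO, by -0.055 (exact permutation p 0.114).

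**Figure D5:**
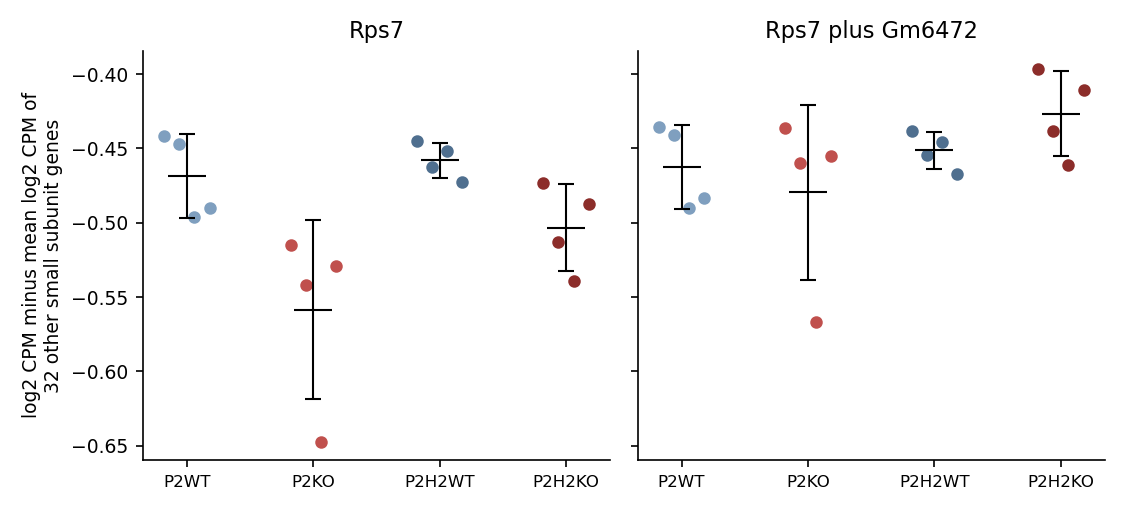
Rps7 (left) and Rps7 plus Gm6472 (right) relative to 32 other small subunit genes (y axis, difference in log2 CPM) for the 4 groups; points are libraries and bars the mean and SD. On the left the deficient libraries lie below the controls of their line (differences of -0.090 and -0.045). On the right they overlap them, after the addition of Gm6472, which was chosen on these comparisons.

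Other genes of the ribosome and of the functions tied to Rps7 were counted from lists written for these genes. Of 33 small subunit genes, Rps7 included, 2 had a positive and 31 a negative log2 fold change in the P2 line, with a median of -0.050 beside 0.020 over all genes, and 0 were called. Rps7 had the lowest log2 fold change of the 33, followed by Rps28 (-0.084, SE 0.082). Rps27l, a p53-responsive relative of Rps27, and Rps2 were at the other end (0.015 and 0.023). In the P2H2 line 11 were positive and 22 negative, with a median of -0.013 beside 0.0011 over all genes and 0 called, and Rps7 was at place 4 from the lowest. Rps10 was lowest (-0.069) and Rps29 highest (0.053) there. Neither line had a small subunit gene at an unadjusted edgeR p under 0.05, and 480 (3.49%) and 354 (2.63%) of all genes were under it. With 0.0437% and 0.0744% of all genes called in these lines, 0 calls among 33 genes is no result about them.

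The 48 large subunit genes tested had 7 positive and 41 negative log2 fold changes in the P2 line (median -0.043) and 22 and 26 in the P2H2 line (median -0.0036). Rpl32 was lowest in the P2 line (-0.085) and Rpl13a in the P2H2 line (-0.064). Of 25 genes for maturation of the small subunit RNA, 17 were positive and 8 negative in the P2 line, and 7 and 18 in the P2H2 line. Mphosph10, a component of the early processing complex, had the highest log2 fold change of that list in both (0.11 and 0.047). Of 12 genes of Mdm2 and p53, 3 were positive and 9 negative in each line. Mdm4, the partner of Mdm2, was at 0.11 (SE 0.098) in the P2 line, and Mdm2 was at 0.11 (SE 0.087) in the P2H2 line. Phlda3, a p53 target, was at -0.50 (SE 0.25, unadjusted p 0.0725, edgeR). In these 3 lists 0 genes were called in either line. With 0.0437% (P2 line) and 0.0744% (P2H2 line) of all genes called, this is no result about the lists. An unadjusted edgeR p under 0.05 was held by 0 of their genes, beside 3.49% and 2.63% of all genes.

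Between the lines, the small subunit genes lay on one side. All 33 had a lower level in P2KO than in P2H2KO (median log2 difference -0.21, with 17 at an unadjusted edgeR p under 0.05, beside 10.7% of all genes, and 0 called). All 33 were also lower in P2WT than in P2H2WT (median -0.14, with 4 under that p, beside 11.4% of all genes, and 0 called). The large subunit genes lay nearly all on the same side. Of 48 tested, 47 were lower in P2KO than in P2H2KO (median -0.18, with 17 under that p and 0 called). Likewise 47 were lower in P2WT than in P2H2WT (median -0.11, with 0 under that p and 0 called). Over all genes, 0.279% were called between the deficient groups and 1.22% between the wild-type groups. The absence of calls is therefore no result about lists of this size. Rps7 was at -0.25 (SE 0.10, unadjusted p 0.0373, edgeR adjusted p 0.435) and -0.14 (SE 0.073, edgeR adjusted p 0.504) in these comparisons, at places 6 and 12 from the lowest of the 33. Markers of several cell types differed in sign alongside. Between the deficient groups, all 15 neutrophil markers had a lower level in P2KO than in P2H2KO (median -0.38) and all 10 B cell markers a higher one (median 0.29). Within the P2 line, all 13 monocyte and macrophage markers had a negative log2 fold change (median -0.27) and all 9 erythroid markers a positive one (median 0.067). Within the P2H2 line, all 15 neutrophil markers had a positive log2 fold change (median 0.19), and all 9 erythroid (median -0.19) and all 10 B cell markers (median -0.36) a negative one. Of 10 T and NK cell markers, 1 was higher and 9 lower in P2KO than in P2WT (median -0.22). None of these markers was called by edgeR. In the P2 line, 4 monocyte and macrophage and 3 T and NK cell markers had an unadjusted edgeR p under 0.05, beside 3.49% of all genes. In the P2H2 line, 7 monocyte and macrophage markers and 1 neutrophil marker did, beside 2.63% of all genes. Between the deficient groups, 7 monocyte and macrophage markers did, beside 10.7% of all genes, and of the 13 listed 6 were higher and 7 lower in P2KO. The part of these shifts in the ribosomal genes, Rps7 included, was not tested.

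Gm6472 was also compared with what surrounds it. It lies within the bounds of another processed pseudogene, Rpl7a-ps12 (chrX:152908778-152910296, minus strand), whose exons sit on both sides. Rpl7a-ps12 had 0 to 3 counts in every library, 1 in all of P2WT, 3 in P2KO, 0 in P2H2WT and 3 in P2H2KO. The counts at this place were thus on the 651 bases that Gm6472 shares with Rps7 and near 0 on the flanking exons, in deficient and wild-type libraries alike. Rpl7a-ps12 is itself a pseudogene, and its count depends on the same unknown handling of shared reads. The nearest expressed genes on either side lay 96.3 to 684 kb away. Of these 10, 8 could be tested in the P2 line and 7 in the P2H2 line, and 0 were called, with log2 fold changes from -0.18 to 0.24 and from -0.23 to 0.13. With 0.0437% and 0.0744% of all genes called, a count of 0 among so few genes is no result about them. They include Kdm5c, a histone demethylase, at -0.027 and 0.071, and Klf8, a transcription factor, at 0.011 and 0.12.

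The 10 genes around Rps7, of which 10 and 9 could be tested, had 0 calls in either line, beside the same shares over all genes. The nearest, Rnaseh1 at 13.6 kb, was at 0.046 and 0.0084. Trappc12, a subunit of a vesicle tethering complex, was at -0.14 (SE 0.062, unadjusted p 0.0501) and -0.20 (SE 0.068, unadjusted p 0.0167) by edgeR, and Pxdn, a peroxidase of the extracellular matrix, at 0.90 (SE 0.38, unadjusted p 0.0392) in the P2 line.

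Besides Gm6472, 29 annotated transcripts matched Rps7 at 80% identity or more over at least 200 bases. Of these copies 25 were in the tables, and 4 are not analysed here. Of the 25, 22 had at most 6 counts in any library, and 11 of those had 0 counts in all libraries. Among these copies, the highest identity to Rps7 was that of Gm9493 (99.47% over 570 bases, 3 mismatches, on chromosome 19 at chr19:23619749-23620319). It had 3 to 9 counts in every library, with totals of 25 in P2WT, 26 in P2KO, 24 in P2H2WT and 21 in P2H2KO, so it showed no step between genotypes like that of Gm6472. It did not pass the filter on low counts and was not tested.

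Only 2 of the other copies passed that filter over all 16 libraries. Gm28530 (97.0% identity) had totals of 44 counts in P2WT (8 to 13 per library) and 86 in P2KO (14 to 30 per library). Its log2 level was higher in P2KO by 0.92 (SE 0.28, unadjusted p 0.00894 and adjusted p 0.99999 by edgeR), so it was not called. Its totals in the P2H2 line were 78 and 77 counts and its log2 fold change was 0.058 (SE 0.33). Gm7285 (96.6% identity) was at 0.082 (SE 0.33) in the P2 line. With all 25 copies in the denominator, the mean share of Gm6472 was 5.28% ± 0.236 in P2KO and 0.436% ± 0.0292 in P2WT.

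No other processed pseudogene was called within a line. Of 306 tested in the P2 line and 301 in the P2H2 line, 0 were called by edgeR, with smallest adjusted p of 0.738 and 0.673. At the shares called over all genes (0.0437% and 0.0744%), sets of this size would seldom hold a call, so the count of 0 sets them apart from no other genes. Their largest log2 fold changes were 1.16 (Gm45855, SE 0.26) in the P2 line and 1.02 (Gm12286, SE 0.24) in the P2H2 line, with no library of either above 1.11 CPM. Gm6472 in the deficient libraries was at 10.5 CPM or more.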

How the data were processed

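The members and the gene lists were chosen with earlier results of these data known. The authors deposited 2 tables of raw counts per Ensembl gene, 1 for each line with 8 libraries, per the file headers. Per the submitters' processing notes, HTSeq and mm10 were used. The aligner, read length, use of strand and treatment of reads that match several places are not given in the sources used here, so the split of reads between Rps7 and Gm6472 depends on unknown settings.

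In edgeR 4.0.16, filterByExpr removed low genes, TMM scaled the libraries and genes were tested with glmQLFit (robust) and glmQLFTest. Benjamini-Hochberg adjustment ran over every gene in the fit, with a threshold of 0.05. Each line was fitted alone, and the difference of effects and the suffix with all 16 libraries. The sum of both genes replaced Rps7 in a fit of its own. SEs and 95% intervals came from the quasi-likelihood F statistic, or from the p where edgeR had raised it. CPM, computed here from the deposited counts, uses TMM-scaled totals of all 16 libraries. Log2 CPM uses a prior count of 2, except in the comparisons with the other small subunit genes, which used none. Exact permutation tests ran over every arrangement of the libraries with numpy 2.4.6, and scipy 1.17.1 adjusted their p values. Copies were found with blastn 2.17.0 on GENCODE M21 transcripts (GRCm38). Depth was 23450746 to 28601284 counts per library.

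Besides the members, the text names copies of Rps7 (80% identity over 200 bases), the 5 expressed genes on each side, the 5 genes of highest r, the 2 lowest and 2 highest of each list, and the 3 pseudogenes of largest log2 fold change; not all are printed, and 1 gene is not reported here. On simulated counts for P2KO against P2WT (13650 genes), 40%, 66%, 82% and 90% of 50 genes each were called at true log2 changes of 0.5, 1, 1.5 and 2. For P2H2KO against P2H2WT (13607 genes) these were 24%, 74%, 84% and 86%, and for the difference of effects (13976 genes) 12%, 68%, 84% and 84%. Unchanged genes called numbered 4, 6 and 2 in these comparisons. The changed genes of every size were in the same simulated set, so many passed and the adjusted threshold was looser than in the deposited data. The percentages may therefore be too high for these data. Alternatives were DESeq2 1.42.0, 2 other scalings (RLE and upper-quartile), the suffix as a covariate, 1 fit of all libraries, omission of each library, and 2 filters (none, or a minimum of 10 counts per library).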

Additional observations from a re-analysis of the deposited data

How the results depend on the processing

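No paired analysis was possible because no replicate number is shared between groups. Under the alternatives run, the log2 fold change of Gm6472 stayed between 3.49 and 3.61 in the P2 line and 3.35 and 3.52 in the P2H2 line when single libraries were left out, and Rps7 passed the adjusted threshold in none of the settings for either line. The sum of both genes has a log2 fold change near 0 and changed sign in the P2H2 line with the suffix as a covariate (-0.00057) and when single libraries were left out (-0.030 to 0.054; negative without P2H2KO 11 or 17 and P2H2WT 14 or 18), and in the P2 line when they were left out (-0.11 to 0.025; positive without P2KO 6). The difference of the effects on Gm6472 ranged from -0.0084 (without P2KO 1) to 0.17, and its difference between suffixes from -0.058 to 0.0097 (positive without P2H2KO 12 or P2KO 6).

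Rps7 relative to the other small subunit genes differed by -0.090 (exact permutation p 0.143) and -0.056 (p 0.0571) with their median. With a library left out the P2 line gave -0.10 to -0.060 and the P2H2 line gave -0.055 to -0.033, with an exact permutation p of 0.0286 or 0.0571 in each. The difference in share between P2KO and P2H2KO was 0.254 percentage points without P2KO 9 (exact permutation p 0.0286), and r of the pair in the wild-type libraries was 0.635 to 0.820 with a library left out. These alternatives for shares and correlations were chosen after seeing the data.

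The number of genes called was 23 in the P2 line and 42 in the P2H2 line with DESeq2, 10 in the P2 line with all libraries in 1 fit, and 6 to 9 in the P2H2 line with a library left out. P2KO against P2H2KO called 255 with DESeq2, 130 in 1 fit, 12 with at least 10 counts, 63 without a filter, 150 with the suffix and 11 to 26 with a library left out. P2WT against P2H2WT called 419 with DESeq2, 32 in 1 fit, 87 with at least 10 counts and 76 to 167 with a library left out. The suffix comparison called 435 with DESeq2, 9 with at least 10 counts, 58 without a filter and 17 to 1066 with a library left out (1066 without P2KO 9, 470 without P2KO 6). The causes were not tested.

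Other named genes changed sign as follows: with the suffix as a covariate Fau -0.0054, Pmaip1 0.0054 and Rps27l -0.0080, and with a library left out Dimt1 -0.23 to 0.012, Fau -0.0045 to 0.081, Gm28530 in the P2H2 line -0.16 to 0.24, Mphosph10 in the P2H2 line -0.013 to 0.10, Rpl13a -0.14 to 0.00074, Rpl23 -0.0011 to 0.060, Gm7285 -0.12 to 0.27, Pmaip1 -0.19 to 0.054, Rps2 -0.034 to 0.094 and Rps27l -0.077 to 0.10. Depth limits Gm6472 in the wild-type libraries, at 24 to 39 counts each.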
